A study of Mus musculus with 30 samples.

Results

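Genes that are recurrently mutated in human chronic lymphocytic leukaemia (CLL) were followed at the RNA level in splenic B cells of mice with a point mutation in Ikzf3, a gene that is itself mutated in human CLL. The set was a given list of 33 mouse genes named for mutations seen in human disease, and it was chosen with earlier results of these data known. All 33 were listed in both expression tables, among 26266 named genes in the table of young mice and 22781 in that of aged mice. The question the design allows is whether the mutant B cells, before leukaemia and in leukaemia, carry different amounts of RNA of the genes that other CLL patients have mutated.

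The mice were C57BL/6 and carried an Ikzf3 missense knock-in (L162R in human, L161R in mouse), an allele the labels write as Ikzf3 fl/+ or Ikzf3 fl/fl. Which Cre or promoter restricts the mutation to B cells was not given in the sources used here. Young mice were 2 to 3 months old, and their B cells came from wild-type mice (n = 3) and from homozygous Ikzf3 fl/fl mice (n = 3). Aged mice were 15 to 18 months old and gave wild-type B cells (n = 3), non-CLL B cells of mutant mice (n = 4, numbers 2, 4, 5 and 6) and CLL cells (n = 5, numbers 1, 2, 4, 5 and 6). In both mutant groups the number 6 was homozygous and the other numbers were heterozygous (Ikzf3 fl/+). B cells were selected immunomagnetically from spleen suspensions cleared of erythrocytes, with a stated minimum purity of 85% for the aged mice, whereas CLL cells were sorted by flow cytometry as B220+CD5+ cells. The CLL and non-CLL groups therefore differ in how the cells were isolated as well as in what they are. The labels do not say whether each young library came from its own animal, so p-values there measure the spread between these samples.

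Driver mutations of CLL fall into a small number of cellular processes. SF3B1 is a core part of the U2 snRNP that recognises the branch point of introns, NOTCH1 is a receptor that is cleaved to become a transcriptional activator, ATM acts in the response to DNA breaks, and XPO1 carries proteins and RNAs out of the nucleus. Other drivers set the strength of NF-kB or RAS-MAPK signalling, or modify and remodel chromatin. Ikzf3 encodes Aiolos, a zinc finger factor of the Ikaros family that acts in B cells on both activating and repressing complexes. A driver gene is defined by its mutations, and its RNA level in cells without such a mutation is a separate quantity.

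The abundance unit is TPM, which scales reads by gene length and library size, so that levels of different genes can be compared within a library. A gene was called higher or lower when limma's test on log2(TPM + 1) gave a Benjamini-Hochberg adjusted p under 0.05 over all genes tested in that comparison. Read numbers cannot be recovered from TPM, so the depth behind each value is unknown. All 6 B cell markers were above 1 TPM in each of the 18 libraries. Ikzf3 RNA was at 250, 214 and 276 TPM in young wild-type and at 381, 422 and 438 TPM in young homozygous libraries, which says nothing of the point mutation. The wild-type libraries 1 and 2 of the young set held Xist (80.9 and 63.1 TPM) and almost no RNA of the Y-linked gene Ddx3y, whereas wild-type library 3 and the 3 homozygous libraries held Ddx3y at 54.3 to 148 TPM and Xist near 0. Olfactory receptor (Olfr) genes, which B cells are not known to use, had a median of 0 TPM in each young library. In the aged set that median was 0, 0.745 and 0 TPM in wild-type, 7.16 to 9.24 TPM in non-CLL and 1.08 to 2.71 TPM in CLL libraries, apart from CLL library 6 at 9.66 TPM. Aged wild-type library 2 also stood apart, with 3.64% of genes at 0 against 33.8% and 37.6% in the other wild-type libraries, and with Ddx3y (17.4 TPM) beside Xist (38.1 TPM). In whole cell populations, fewer cells of a type and less RNA per cell cannot be told apart.

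Promoters of the members were read to show how often they hold the DNA word that Ikaros-family proteins bind. The core searched was TGGGAA on either strand (TTCCCA on the other), which overlaps the GGAA core of ETS factors. The window was 250 bases before each start site in the RefSeq promoter table (GRCm38.p6), and 32 of 33 members had an entry. It was present in 5 of these 32 members (15.6%), namely Sf3b1, Zmym3, Spen, Cnot3 and Dnmt3a, and in 24.1% of 27025 genes in the table. The first pair below are members with the word, shown in capitals. The second pair, Med12 and Nxf1, hold none and belong to the members with large changes in young B cells. The pairs are examples and do not relate the word to the size of a change. Spen, with the word, changed by 0.80 in young B cells and Notch1, without it, by 0.20 (log2). The windows are chr1:55027479-55027728 (minus strand), chr7:3645019-3645268 (plus strand), chrX:101273841-101274090 (plus strand) and chr19:8756853-8757102 (plus strand).
Sf3b1: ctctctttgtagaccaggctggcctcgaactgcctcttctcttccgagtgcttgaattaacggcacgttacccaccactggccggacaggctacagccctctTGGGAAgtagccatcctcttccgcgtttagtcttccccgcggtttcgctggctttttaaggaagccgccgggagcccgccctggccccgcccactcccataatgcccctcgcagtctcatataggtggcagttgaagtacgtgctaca
Cnot3: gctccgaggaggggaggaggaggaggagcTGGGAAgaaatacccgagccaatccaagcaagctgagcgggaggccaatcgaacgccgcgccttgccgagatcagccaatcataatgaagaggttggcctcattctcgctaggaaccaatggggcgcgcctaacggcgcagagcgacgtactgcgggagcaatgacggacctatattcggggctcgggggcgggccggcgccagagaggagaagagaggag
Med12: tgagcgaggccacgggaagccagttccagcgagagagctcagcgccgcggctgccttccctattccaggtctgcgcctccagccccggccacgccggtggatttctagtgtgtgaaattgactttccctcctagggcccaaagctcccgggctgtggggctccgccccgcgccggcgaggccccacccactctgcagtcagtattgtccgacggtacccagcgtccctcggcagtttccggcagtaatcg
Nxf1: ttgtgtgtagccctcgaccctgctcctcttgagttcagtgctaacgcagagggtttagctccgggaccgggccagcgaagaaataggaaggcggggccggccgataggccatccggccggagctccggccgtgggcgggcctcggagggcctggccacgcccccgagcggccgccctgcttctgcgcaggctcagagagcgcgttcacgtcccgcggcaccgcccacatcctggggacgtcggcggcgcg
These windows are rich in G and C, with a median of 66.0% over the members' promoters against 52.4% over all promoters in the table. A match is a run of letters and not a measured binding site.

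Young homozygous B cells held more RNA of most of the CLL driver genes than young wild-type B cells. Of the 33 genes, 29 were called higher and 0 lower, against 38.4% of all 12219 tested genes called higher and 12.6% called lower. The median log2 change was 0.63 over the members and 0.18 over all tested genes, and 32 of 33 members lay above the median of all genes. In 30 members each homozygous library was above each wild-type library, an arrangement seen in 44.5% of all genes (16.9% for the opposite one). The chromatin genes (10 of 10 called) and the genes of RNA processing and export (6 of 6) had medians of 0.71 and 0.69. The members not called were Gnb1, Notch1, Pot1a and Birc3.

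**Figure D1:**
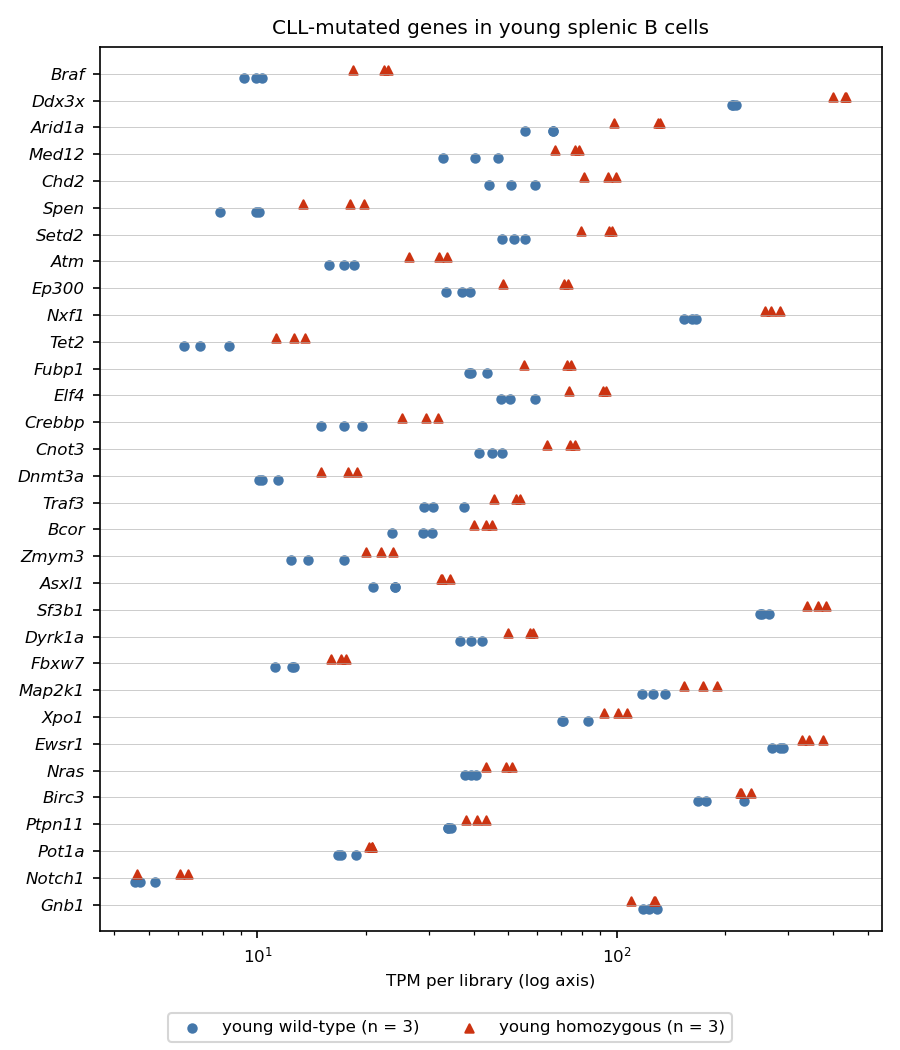
Each point is 1 library of young splenic B cells, with TPM on a log axis and 32 of the genes ordered by their log2 change (largest at the top). Circles are wild-type (n = 3) and triangles homozygous (n = 3), and the groups overlap for Birc3, Notch1 and Gnb1 and for no other gene shown.

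Sf3b1, the splicing factor, was among the most abundant members. It stood at 254, 250 and 265 TPM in wild-type and at 339, 363 and 383 TPM in homozygous libraries. The groups did not overlap, and the log2 change was 0.49 (SE 0.08, adjusted p = 0.00131). Of 16 other genes of the U2 snRNP and its helpers, 9 were called higher and 2 lower, with a median of 0.25. Zrsr2 (0.90), which recognises the 3' splice site of minor introns, and the helicase Ddx46 (0.89) changed most upwards. The small SF3b subunits Sf3b5 (-0.49) and Sf3b6 (-0.37), partners of Sf3b1 in 1 complex, fell.

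Notch1 had the lowest level of all members in young B cells. Its values were 5.19, 4.70 and 4.57 TPM in wild-type and 4.63, 6.40 and 6.08 TPM in homozygous libraries. The groups overlapped, with a log2 difference of 0.20 (SE 0.14, adjusted p = 0.281). Fbxw7, the ubiquitin ligase subunit that marks cleaved Notch for destruction, rose from 12.1 ± 0.772 to 16.9 ± 0.816 TPM (SD, n = 3 each; log2 change 0.45, adjusted p = 0.0044). Spen, a corepressor that acts on Notch target genes through RBPJ, was at 9.93, 7.88 and 10.1 TPM in wild-type and at 13.4, 19.8 and 18.1 TPM in homozygous libraries. Its log2 change was 0.80 (SE 0.16, adjusted p = 0.0031). Of 18 tested Notch pathway genes, 5 were called higher, among them Jag2 (0.73) and Notch2 (0.61), and 3 lower, among them the targets Hes5 (-0.78) and Dtx1 (-0.62). Notch2, the receptor that marginal zone B cells need, had means of 69.3 TPM (wild-type) and 106 TPM (homozygous), well above Notch1 in both.

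Atm, the kinase that signals DNA double-strand breaks, was at 17.4, 15.8 and 18.6 TPM in wild-type and at 26.4, 32.0 and 33.7 TPM in homozygous libraries. The groups were apart, and the log2 change was 0.79 (SE 0.11, adjusted p = 0.000815). Pot1a, which binds single-stranded telomere DNA in the shelterin complex, was at 17.1, 16.8 and 18.8 TPM against 20.9, 20.8 and 20.4 TPM. Its groups did not overlap, but its log2 difference of 0.23 was not called (SE 0.09, adjusted p = 0.0514). Its paralogue Pot1b rose by 0.94. Of 20 other genes of the DNA damage response, 12 were called higher and 2 lower. The BH3-only gene Pmaip1 (2.2), which promotes apoptosis, and Mdm4 (1.13) were the largest rises, and Nbn (-0.78), a part of the MRN complex that senses breaks, fell. Of 12 other shelterin and telomere genes, 6 were called higher and 0 lower.

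Ddx3x, an X-linked RNA helicase of translation initiation, showed the smallest adjusted p of the set. It was at 211, 215 and 209 TPM in wild-type and at 401, 431 and 436 TPM in homozygous libraries. The lowest homozygous value was far above the highest wild-type value, for a log2 change of 0.99 (SE 0.07, adjusted p = 6.93e-05). The wild-type libraries with Xist (1 and 2) and the wild-type library with Ddx3y (3) differed little in Ddx3x. By contrast Kdm6a, an X-linked gene known to escape X inactivation, was at 39.7 and 39.0 TPM in libraries 1 and 2 and at 26.9 TPM in library 3. The escape genes Kdm5c (48.2, 47.1 and 34.1 TPM) and Eif2s3x (47.2, 49.3 and 37.4 TPM) were also lowest in library 3. In the homozygous libraries Kdm6a was at 34.0 to 42.2 TPM, Kdm5c at 45.9 to 54.7 TPM and Eif2s3x at 34.4 to 37.9 TPM. The part of the Xist and Ddx3y difference in the change of Ddx3x was not tested.

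The export and RNA-binding members moved the same way. Nxf1, the main export receptor of mRNA, was at 162, 154 and 166 TPM in wild-type and at 260, 269 and 284 TPM in homozygous libraries. The groups were far apart (log2 change 0.75, SE 0.08, adjusted p = 0.00025). Xpo1, the exportin that is the target of selinexor, rose from 74.9 ± 7.2 to 100.1 ± 7.33 TPM (log2 change 0.41, adjusted p = 0.00613). Cnot3, a subunit of the CCR4-NOT deadenylase, was at 45.0, 41.4 and 47.9 TPM against 64.0, 74.2 and 76.7 TPM, for a log2 change of 0.66 (adjusted p = 0.000843). The RNA- and DNA-binding proteins Fubp1 (log2 change 0.71) and Ewsr1 (0.31) were also called higher. Of 20 other export and deadenylation genes, 14 were called higher and 1, Nxt1 (-0.56), the partner of Nxf1, was called lower. Btg1, an antiproliferative gene that recruits the deadenylase, rose by 0.93 and Cnot6l, a catalytic subunit, by 0.75.

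In the NF-kB branch, Traf3, which restrains the non-canonical pathway by promoting loss of NIK, was at 30.9, 29.1 and 37.5 TPM in wild-type and at 45.6, 53.9 and 52.6 TPM in homozygous libraries. Its groups were apart, with a log2 change of 0.63 (SE 0.11, adjusted p = 0.00203). Birc3, a ubiquitin ligase that works with Traf3, had 177, 169 and 226 TPM against 237, 220 and 222 TPM. Wild-type library 3 lay among the homozygous libraries, and the log2 difference of 0.26 was not called (adjusted p = 0.082). Of 16 other NF-kB genes, 10 were called higher and 1 lower. Tnfaip3, the ubiquitin editor A20 and itself a target of NF-kB, rose by 1.21, the kinase gene Chuk rose by 0.96, and the receptor gene Cd40 fell by 0.41 on the log2 scale.

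Among signalling members the genes of RAS-MAPK differed from each other. Braf, the kinase that activates MEK, had the largest log2 change of the 33. It was at 9.92, 9.17 and 10.3 TPM in wild-type and at 18.4, 22.5 and 23.0 TPM in homozygous libraries, without overlap (log2 change 1.04, SE 0.11, adjusted p = 0.000308). Map2k1, which encodes MEK1, rose by 0.45, from 126 ± 9.33 to 173 ± 18.4 TPM. Nras was at 37.8, 39.3 and 40.6 TPM against 43.2, 51.2 and 49.1 TPM (log2 change 0.28, adjusted p = 0.0251), and the phosphatase gene Ptpn11 at 34.6, 33.9 and 33.9 TPM against 38.1, 43.2 and 40.9 TPM (0.25, adjusted p = 0.0265). Gnb1, a G protein beta subunit, was at 123, 130 and 119 TPM against 110, 127 and 128 TPM, with overlapping groups and a log2 difference of -0.03 (SE 0.09, adjusted p = 0.787). Of 18 other genes of the pathway, 9 were called higher, among them the RAS GTPase-activating genes Rasa2 (0.77) and Rasa1 (0.75), and 1, Hras (-0.48), lower.

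The chromatin members spanned a narrow range of change, from 0.51 for Asxl1 to 0.92 for Arid1a. Arid1a, a DNA-binding subunit of the BAF remodeller, was at 66.4, 55.6 and 66.6 TPM in wild-type and at 98.5, 130 and 132 TPM in homozygous libraries (SE 0.13, adjusted p = 0.000821). Chd2, a remodelling ATPase, stood at 50.8, 44.3 and 59.2 TPM against 81.1, 94.8 and 99.7 TPM (log2 change 0.83, adjusted p = 0.000893). Setd2, which trimethylates H3K36, was at 51.7, 47.9 and 55.5 TPM against 79.7, 96.8 and 95.4 TPM (0.80, adjusted p = 0.000502). None of these groups overlapped. The histone acetyltransferase genes Ep300 (0.78) and Crebbp (0.70), the DNA methylation genes Tet2 (0.73) and Dnmt3a (0.65), and the X-linked genes Bcor (0.61), a corepressor with BCL6, and Zmym3 (0.58) completed the group with Asxl1. Tet2, which oxidises 5-methylcytosine, and Dnmt3a, which places it, act in opposite directions on DNA methylation. Tet2 was at 6.93, 6.25 and 8.35 TPM against 11.2, 12.7 and 13.6 TPM, and Dnmt3a at 10.3, 10.1 and 11.4 TPM against 15.1, 19.0 and 17.8 TPM. Of 23 tested other chromatin genes, 16 were called higher and 0 lower, with the H3K4 methyltransferase genes Kmt2d (1.11) and Kmt2a (1.06) the largest.

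Med12, the X-linked gene of the Mediator kinase module, was at 40.3, 32.8 and 46.6 TPM in wild-type and at 67.3, 78.5 and 76.4 TPM in homozygous libraries (log2 change 0.89, SE 0.13, adjusted p = 0.000875). Of 10 other Mediator genes, 8 were called higher and 0 lower, with Med13 (0.87), of the same module, and Med1 (0.83) in front. Elf4, an X-linked ETS factor, rose by 0.71, from 52.4 ± 6.17 to 86.3 ± 10.8 TPM, and Dyrk1a, a dual-specificity kinase, by 0.48. Each of the 5 X-linked members, Ddx3x, Med12, Elf4, Bcor and Zmym3, was thus called higher. Of 19 tested further genes mutated in human CLL, 14 were called higher and 2 lower. Egr2 (1.98), from 5.23 to 23.4 TPM, and Irf4 (1.53), from 72.5 to 210 TPM, had the largest changes, and the ribosomal protein gene Rps15 (-0.54) and Myd88 (-0.27) fell.

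The young groups also differed in other ways. The summed level of 10 myeloid marker genes was 1498 to 5497 TPM in wild-type and 225 to 494 TPM in homozygous libraries, with 10 of 10 markers above 1 TPM in wild-type and 9 of 10 in homozygous libraries. Its part in the result was not tested. With the wild-type libraries 1 and 2 left out, the single remaining wild-type library is assumed to vary like the others. In that fit 15 of 33 members were called higher, against 16.6% of all genes, with a median log2 change of 0.47 over the members and 0.15 over all genes. Those 15 included Ddx3x (1.01), Braf (0.98), Arid1a (0.83), Nxf1 (0.70), Setd2 (0.69), Atm (0.69), Med12 (0.65) and Sf3b1 (0.45). Rescaling every library by the median of all tested genes moved the median of all genes from 0.18 to -0.01. It left 23 members higher, against 23.7% of genes, and 1 lower, Gnb1, against 23.0% of genes. All genes then split into 2898 higher and 2809 lower calls, against 4698 and 1539 without rescaling. Among genes of at least 20 TPM, 24 of 27 tested members were called higher, against 48.1% of such genes. Leaving out single libraries gave 25 to 31 members called higher, against 27.8% to 39.9% of all genes in those fits. Nras, Ptpn11 and Ewsr1 each lost the call in at least 1 of these fits.

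**Figure D2:**
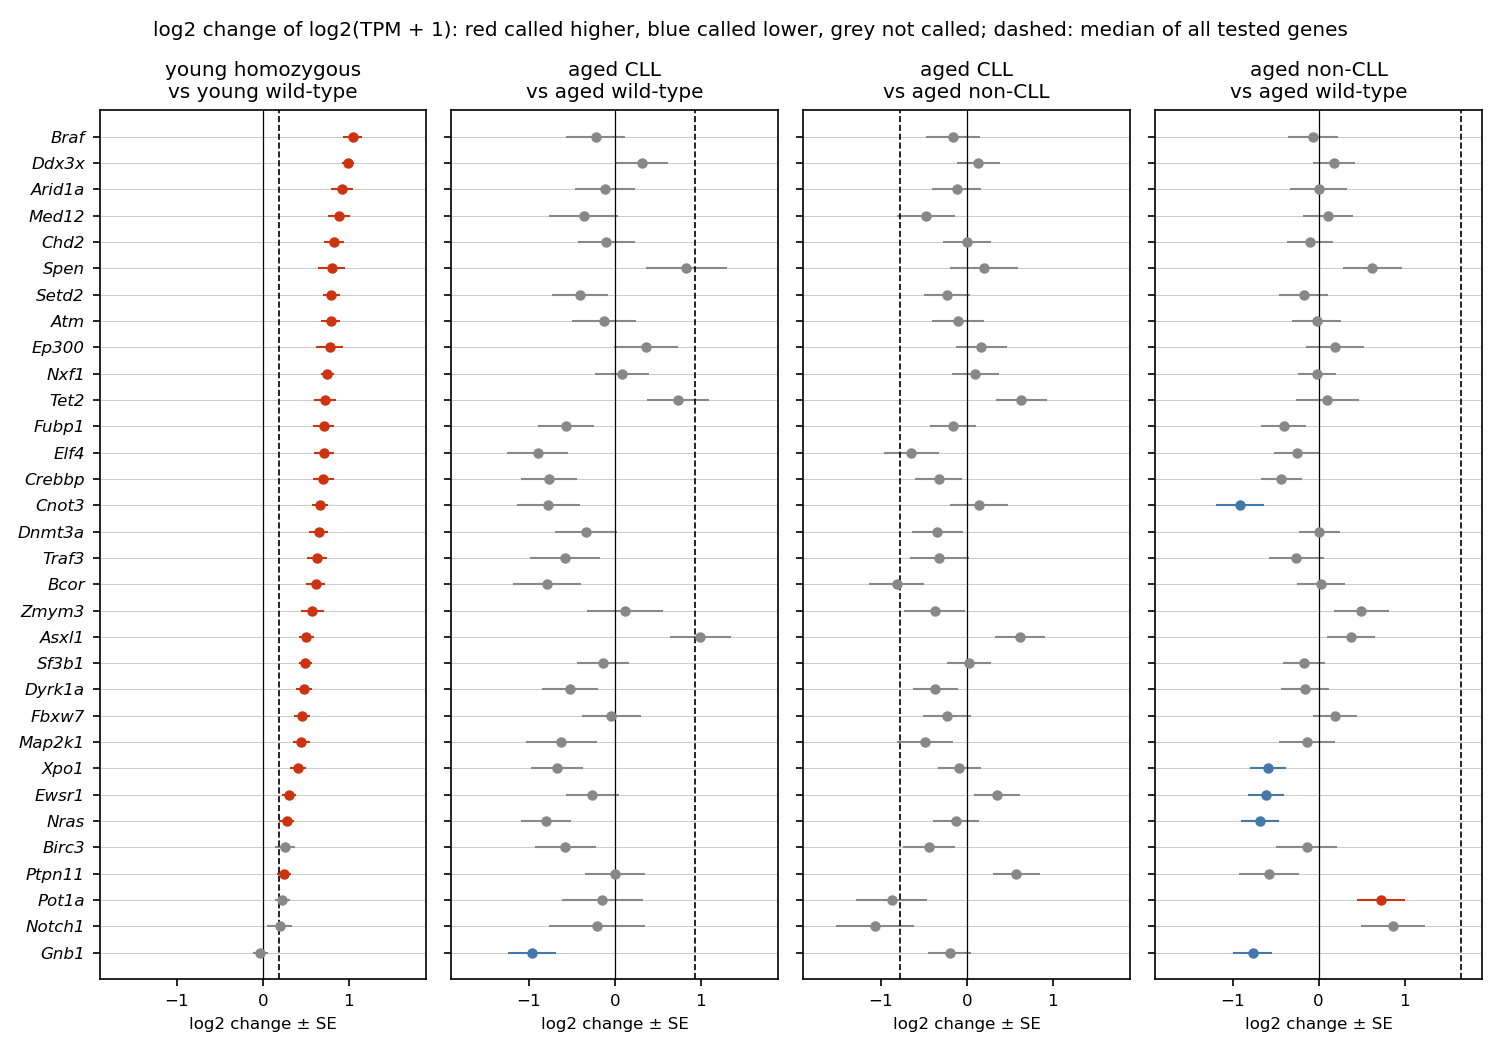
Each panel is 1 comparison, with log2 changes of log2(TPM + 1) and standard errors for 32 of the genes in the order of the young comparison. Red is called higher, blue called lower and grey not called, and the dashed line is the median of all tested genes (0.18, 0.93, -0.77 and 1.65 from left to right).

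In the aged mice few members were called in any comparison, and standard errors were larger, between 0.21 and 0.56 on the log2 scale. The 3 aged comparisons share their groups with each other, so their values for a gene are not independent. The same aged libraries differed in background signal, as the Olfr medians above show, and the median log2 difference of all tested genes was 0.93 for CLL against wild-type, -0.77 for CLL against non-CLL and 1.65 for non-CLL against wild-type. Over the members the medians were -0.22, -0.16 and -0.07. Of 33 members, 1, 30 and 0 lay above the median of all genes. In fits limited to genes of at least 20 TPM, the medians of all genes were -0.04, -0.06 and 0.02. There, 7 of 29, 11 of 30 and 9 of 30 tested members lay above them.

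Between CLL cells and aged wild-type B cells, 0 members were called higher and 1 lower, against 2.94% and 0.604% of 21202 genes. At an unadjusted p under 0.05 there were 8 members and 9776 genes. Gnb1 was at 11739, 10725 and 15380 TPM in wild-type and at 5360, 8764, 4942, 6118 and 7560 TPM in CLL libraries. Each CLL library was below each wild-type library, and the log2 change was -0.96 (SE 0.28, adjusted p = 0.0417). Gnb1 was the most abundant member in the aged table, and the call was lost in 8 of 18 alternative fits. Of these, 3 left out 1 library: CLL library 5, wild-type library 1 or wild-type library 3. Another was the fit with the number as a block, although CLL and wild-type libraries come from different mice. Without CLL library 1 or 6 there were 2 members called lower, and 1.65% and 1.64% of all genes. Without CLL library 4 or wild-type library 2 there were 3, and 2.29% and 2.34% of all genes. Counting groups that do not overlap, 1 member was higher in CLL cells (Asxl1; 29.0% of all genes) and 5 were lower (Gnb1, Elf4, Cnot3, Crebbp and Xpo1; 2.55% of all genes).

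Asxl1, a Polycomb-associated chromatin regulator, was at 30.5, 22.4 and 27.4 TPM in aged wild-type and at 41.1, 49.0, 51.5, 73.8 and 60.2 TPM in CLL libraries. The lowest CLL library was above the highest wild-type library, with a log2 difference of 1.00 (SE 0.35, adjusted p = 0.0546). It was called in 7 of 18 alternative fits, among them the fit without CLL library 6, the library with high Olfr signal (0.96, adjusted p = 0.0471). That fit called 27.3% of all genes higher. The median log2 difference of all tested genes was 0.66 in that fit and 0.93 in the main fit. Elf4 was at 78.7, 65.9 and 79.4 TPM against 37.3, 48.7, 62.2, 19.4 and 43.2 TPM (-0.90, SE 0.36, adjusted p = 0.0611). Spen showed the next largest difference (0.83, SE 0.47, adjusted p = 0.158), with CLL library 1 at 7.42 TPM and the other CLL libraries at 16.1 to 24.7 TPM against 7.79 to 9.29 TPM in wild-type. The other X-linked members were not called, with Bcor at -0.79, Med12 at -0.36, Ddx3x at 0.32 and Zmym3 at 0.12. Sf3b1 was at 548, 343 and 547 TPM in wild-type and at 540, 376, 367, 513 and 363 TPM in CLL libraries. These overlapped, for a log2 difference of -0.14 (SE 0.30, adjusted p = 0.745). Atm, at 24.1 to 44.9 TPM in CLL and 25.0 to 42.9 TPM in wild-type libraries, overlapped as well (-0.13, adjusted p = 0.815). Around the members, the pathway lists had few calls: in the NF-kB list the TACI gene Tnfrsf13b rose by 1.62 and Traf1 and Nfkb2 fell (-1.26 and -1.16), in the chromatin list the PBAF gene Pbrm1 fell (-1.09), and the splicing, Notch, DNA damage, telomere, RAS-MAPK, export, Mediator and further CLL lists had 0 calls each.

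**Figure D3:**
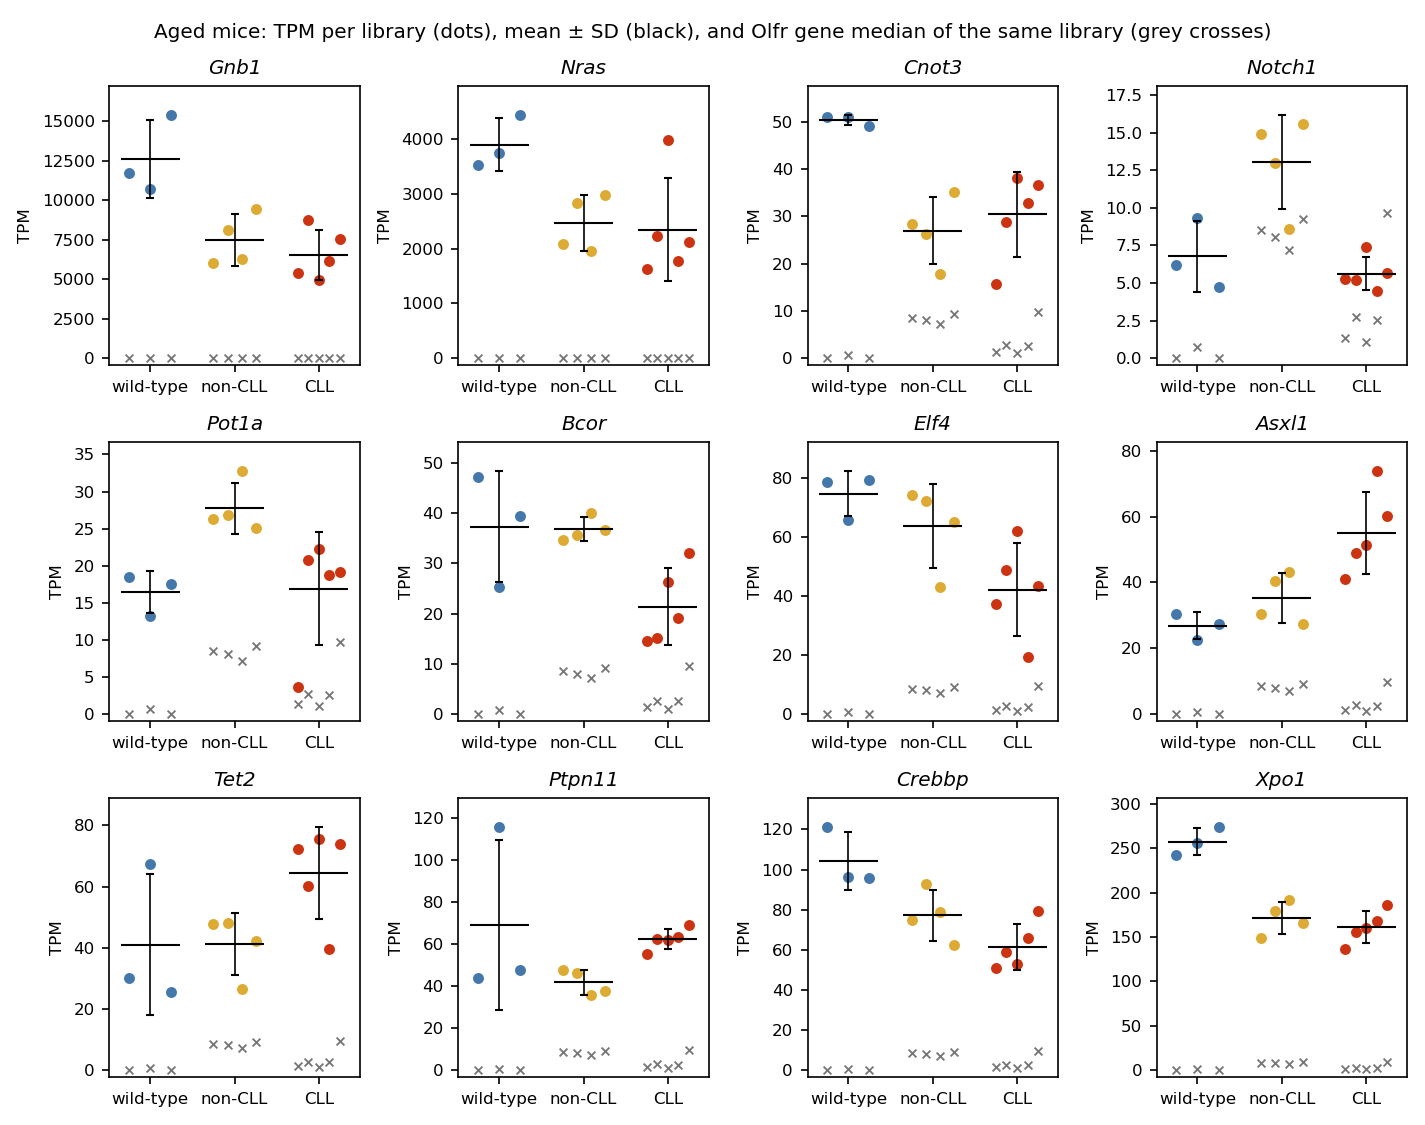
TPM of 12 genes in every aged library (dots; wild-type n = 3, non-CLL n = 4, CLL n = 5, in the order of their numbers), with the group mean ± SD in black and the median of 1106 Olfr genes of the same library as a grey cross. Notch1 lies above the crosses in the non-CLL group, nearest in library 5, and Pot1a is at 3.62 TPM in CLL library 1.

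Non-CLL B cells came from the mutant mice that also gave CLL cells, per the study's design text, and the titles give a shared number and genotype to 4 libraries of each kind. In this comparison 0 members were called higher and 0 lower with limma, against 0.744% and 5.02% of 22316 genes. At an unadjusted p under 0.05 there were 6 members and 8794 genes, and the fit with the number as a block called 0 as well. Rescaled by the median of all tested genes, 0 members were again called, but 20 of 33 changed sign: 32 then lay above 0, against 12 without rescaling. The members' median moved from -0.16 to 0.79 and that of all genes from -0.77 to -0.05. Many of the members' directions therefore depend on the scaling. Rescaled by genes with a mean of at least 20 TPM, 0 members changed sign. Notch1 was reversed in 0 of 19 alternative fits, and Bcor and Pot1a each in 1 of 20. The smallest adjusted p was 0.0759, for Bcor. Notch1 had the largest difference, with 14.9, 13.0, 8.62 and 15.6 TPM in non-CLL and 5.24, 5.21, 7.41, 4.49 and 5.70 TPM in CLL libraries. Each CLL library was below each non-CLL library (-1.07, SE 0.45, adjusted p = 0.0875). The Olfr medians of the same non-CLL libraries were 8.52, 8.06, 7.16 and 9.24 TPM. Each was below the Notch1 value of its library, and non-CLL library 5 had the nearest values. In CLL library 6 the Olfr median of 9.66 TPM was above the Notch1 value. With the library's Olfr median subtracted, the difference was -0.70 (adjusted p = 0.606). Bcor was at 34.7, 35.7, 40.1 and 36.7 TPM in non-CLL and at 14.5, 15.1, 26.2, 19.2 and 32.1 TPM in CLL libraries, also without overlap (-0.82, SE 0.32). Without CLL library 6, Notch1 (-1.08, adjusted p = 0.0164) and Bcor (-0.97, adjusted p = 0.012) were called lower, in a fit that called 48.6% of all genes lower. Pot1a was at 26.3, 26.8, 32.7 and 25.1 TPM against 3.62, 20.8, 22.2, 18.8 and 19.1 TPM (-0.87, SE 0.41, adjusted p = 0.117). In the other direction, Ptpn11, which encodes the phosphatase SHP2, was at 47.4, 46.2, 35.7 and 37.7 TPM in non-CLL and at 55.4, 62.3, 62.1, 63.3 and 69.0 TPM in CLL libraries (0.58, SE 0.27, adjusted p = 0.117). Groups that do not overlap were thus found for 1 member higher in CLL (1.17% of genes) and 3 lower (7.51%). The X-linked members besides Bcor were at -0.65 (Elf4), -0.47 (Med12), -0.37 (Zmym3) and 0.13 (Ddx3x), none called. In the pathway lists Dtx1 (1.42), Tnfrsf13b (1.65) and the remodeller gene Chd1 (1.28) were called higher and Traf1 (-1.46) and Klhl6 (-1.29) lower.

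Libraries with the same number were taken as 1 mouse. In these 4 pairs the CLL library was higher in 4 of 4 for 5 members, against 4.36% of all tested genes, and lower in 4 of 4 for 8 members, against 34.0% of all tested genes. Asxl1 was higher in the CLL cells of numbers 2, 4, 5 and 6 by a mean of 0.72 on the log2 scale, and Ptpn11, Tet2 and Cnot3 were also higher in 4 of 4. Notch1 was lower in 4 of 4, by -1.36, -0.74, -0.81 and -1.31 for numbers 2, 4, 5 and 6. Bcor, Elf4, Pot1a, Dyrk1a, Setd2, Dnmt3a and Sf3b1 were lower in 4 of 4 too, although for Sf3b1 the mean was -0.06. The other 20 members had pairs on both sides of 0. Tet2 stood at 47.6, 48.2, 26.6 and 42.2 TPM in non-CLL and at 72.3, 60.1, 75.6, 39.7 and 74.0 TPM in CLL libraries, the first of these being number 1, which has no partner. The groups overlapped, since CLL library 5 was below 3 of the non-CLL libraries, but each CLL library was above its own partner. Natural killer and plasmacytoid dendritic cell markers differed in the same pairs: their summed level was 328 to 1624 TPM in non-CLL and 21.1 to 69.5 TPM in CLL libraries, and 6 of 6 were called lower in CLL. Its part in the members' values was not tested.

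**Figure D4:**
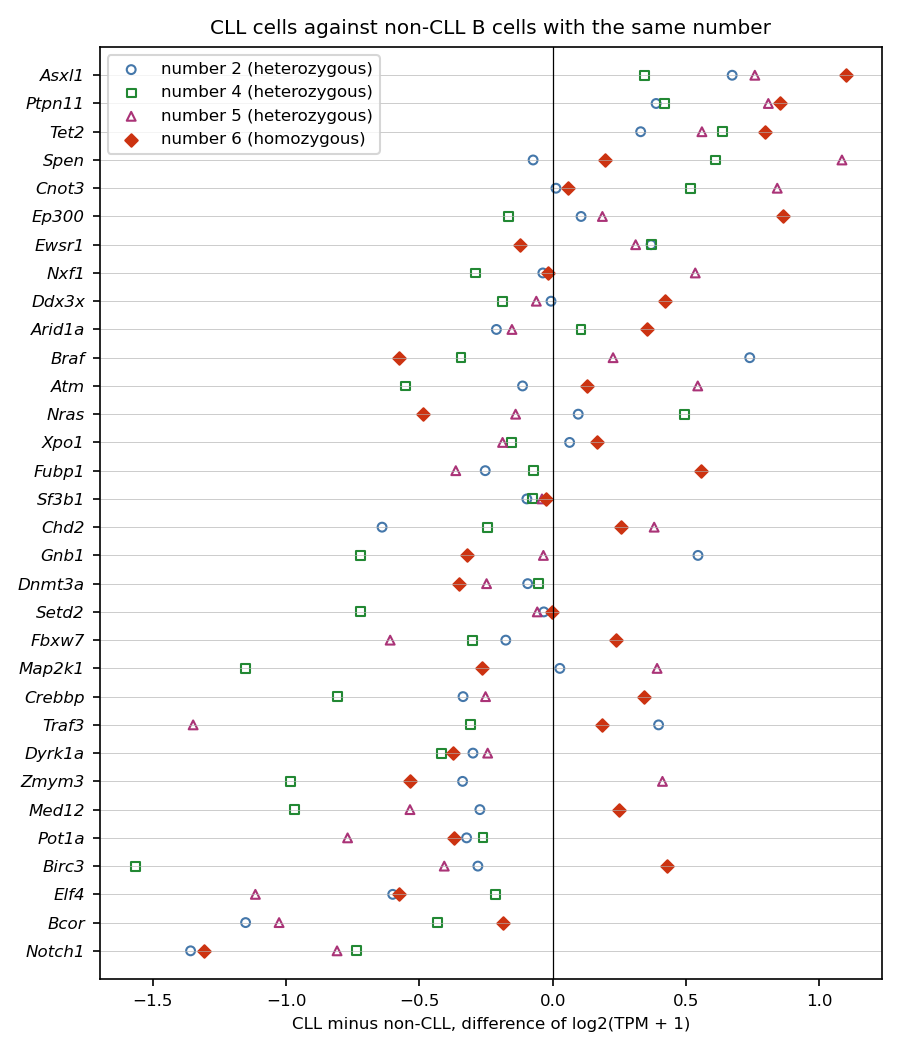
Each symbol is 1 of 4 pairs of libraries with the same number, and the x axis is the log2(TPM + 1) value of the CLL library minus that of the non-CLL library, with 32 of the genes ordered by the mean. Open symbols are heterozygous and the filled diamond is the homozygous number 6. Asxl1, Ptpn11, Tet2 and Cnot3 lie to the right of 0 in 4 of 4 pairs, and Notch1, Bcor and Elf4 to the left.

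Non-CLL B cells of aged mutant mice, set against aged wild-type B cells, gave 1 member called higher and 5 lower, while 55.8% of 22150 genes were called higher and 1.48% lower. The call higher was Pot1a, at 18.5, 13.2 and 17.6 TPM in wild-type and at 25.1 to 32.7 TPM in non-CLL libraries (0.73, SE 0.28, adjusted p = 0.0444). The call held in 4 of 16 alternative fits, was lost in 11, and the sign turned in 1. The calls lower were for Gnb1, Nras, Cnot3, Ewsr1 and Xpo1. Gnb1 was at 6005, 8141, 6267 and 9452 TPM in non-CLL libraries, each below the 10725 TPM of the lowest wild-type library (-0.76, SE 0.23, adjusted p = 0.0129). Nras was at 3525, 3746 and 4442 TPM in wild-type and at 2092, 2831, 1957 and 2984 TPM in non-CLL libraries (-0.68, SE 0.22, adjusted p = 0.0201). Cnot3 was at 50.9, 51.0 and 49.2 TPM against 28.4, 26.3, 17.9 and 35.1 TPM (-0.92, SE 0.28, adjusted p = 0.0166). Ewsr1 (-0.61, adjusted p = 0.0274) and Xpo1 (-0.59, adjusted p = 0.0296) fell likewise, and lost the call in 8 and 9 of 16 alternative fits. Gnb1, Nras and Cnot3 lost it in 4, 5 and 2 of 16. Without non-CLL library 2, 4 or 6 or wild-type library 1 the members called lower were 3, against 0.908% to 1.33% of all genes, and without wild-type library 3 they were 2, against 0.632%. In CLL libraries Cnot3 was at 15.6 to 38.1 TPM and Xpo1 at 137 to 186 TPM, the latter against 243 to 274 TPM in wild-type.

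Markers of other cell types moved in the same comparison. Of the natural killer and plasmacytoid dendritic cell markers 6 of 6 were called higher in non-CLL cells (median log2 change 3.75, against 1.65 over all genes), with a summed level of 328 to 1624 TPM against 6.65 to 201 TPM in wild-type. Of 6 T cell markers 4 were called higher, with a summed level of 113 to 313 TPM in non-CLL cells. In wild-type it was 614 TPM for library 2 and 3.60 and 15.5 TPM for the others. The B cell gene Ms4a1 was at 617 TPM in wild-type library 2 and at 3610 and 3848 TPM in the other wild-type libraries. The part of these cells in the members' values was not tested. Without wild-type library 2 there were 1 member called higher and 6 lower, against 53.4% and 2.50% of all genes.

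In this comparison groups that do not overlap were found for 1 member higher (53.7% of genes) and 6 lower (2.33%), the sixth being Crebbp. The members not called with the largest differences were Notch1 (0.87, adjusted p = 0.0699), Spen (0.62, adjusted p = 0.147) and Ptpn11 (-0.58, adjusted p = 0.181), where wild-type library 2 was at 116 TPM and the other wild-type libraries at 43.8 and 47.6 TPM. The X-linked members were at 0.50 (Zmym3), 0.18 (Ddx3x), 0.11 (Med12), 0.02 (Bcor) and -0.25 (Elf4), none called. Rescaled by the median of all tested genes, 0 members were called higher and 26 lower, against 20.8% of genes called lower. Rescaled by genes with a mean of at least 20 TPM, the calls were 1 higher and 5 lower, the same 6 as without rescaling. With the Olfr median subtracted, 0 members were called in either direction, against 0.231% of genes called higher and 0.0894% lower. Of 23 Notch pathway genes 10 were called higher, below the 55.8% of all genes, with Hey1 (3.44) and Notch3 (2.49) the largest. The median of this list was 0.64, against 1.65 over all genes. Olfr medians were 7.16 to 9.24 TPM in non-CLL and 0 to 0.745 TPM in wild-type libraries, and the part of this background was not tested.

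The order of the members by level was not the same in the young and the aged table, which were normalized separately and can be set side by side only as a description. In young wild-type B cells the mean levels ran from 4.82 TPM (Notch1) through 7.18 (Tet2), 9.31 (Spen) and 9.79 (Braf) to 191 (Birc3), 212 (Ddx3x), 256 (Sf3b1) and 282 TPM (Ewsr1). In aged wild-type B cells Notch1 (6.77 ± 2.36 TPM) and Spen (8.51 ± 0.748 TPM) were again at the low end, within their spread of each other. At the high end stood Gnb1, at 12615 TPM, and Nras, at 3904 TPM, which were at 124 and 39.2 TPM in the young table, ratios of 102 and 99.5. Braf (7.25), Crebbp (6.02), Tet2 (5.72) and Fbxw7 (4.94) followed at some distance. Gapdh, a gene with many processed copies, was at 628 to 695 TPM in young and at 3.96 to 10.4 TPM in aged wild-type libraries. Age and the making of the tables cannot be told apart.

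**Figure D5:**
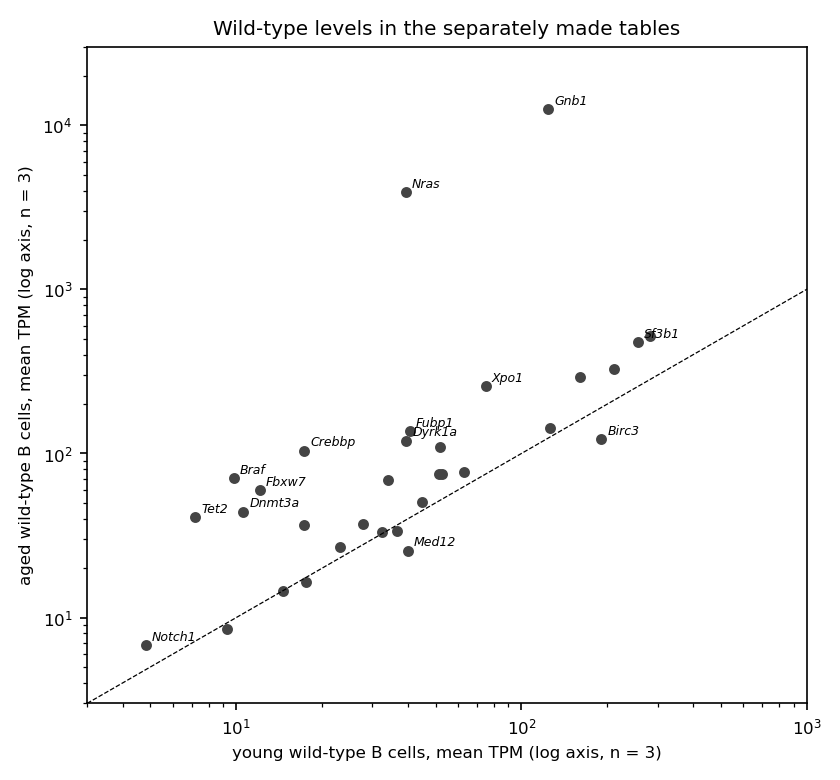
Mean TPM of 32 of the genes in aged (y axis) and young (x axis) wild-type B cells, both axes on a log scale, n = 3 each, with equal levels on the dashed line. Genes over 3 times higher in the aged table or well below the line, and Sf3b1 and Notch1, are named, and Gnb1 and Nras lie 102 and 99.5 times above the young level.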

How the data were processed

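RNA-seq of 18 mouse B cell libraries was analysed, and 12 chromatin samples were not. The authors deposited TPM for aged mice, per the labels, and a table for young mice whose columns sum to the total that TPM has, and which was taken as TPM. STAR 2.4.0.1, Bowtie2 2.3.4.1, MACS2 2.2.0 and mm10 are named in the submitters' processing notes. Quantifier and strandedness: not given in the sources used here. Left out were 25 and 26 gene names turned into dates (aged, young) and 887 unnamed young entries, which hold 4.44% to 9.36% of TPM. Depth is unknown.

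A gene was tested if its TPM reached 1 in a number of libraries equal to the size of the smaller group, and values entered as log2(TPM + 1) with limma 3.58.1 in R 4.3.3 (trend, robust, two-sided), Benjamini-Hochberg adjusted over all tested genes of the comparison. All 33 members passed this filter in each comparison, and the counts include 1 whose own values are not reported here. SE is the standard error of a log2 change, and values after ± are SD. No replicate libraries held identical values. Named by rule were called members (at most 20 a comparison, by size), the 3 largest uncalled, the X-linked members and up to 2 called genes per direction of each pathway list. Other members were named after their values were seen. The members and lists were chosen with earlier results of these data known. Non-CLL cells came from the CLL mice, per the design text. CLL and non-CLL libraries with 1 number and genotype in their titles were therefore taken as 1 mouse, although the titles do not say what the number marks and deviations correlated weakly (r -0.03 to 0.13). Young numbers are not shown to pair (r -0.10, 0.24 and 0.32). Alternatives changed the filter, the pseudocount (0.1), the scaling, the background, the fit, and left out libraries. On simulated data a log2 change of 1 was recovered for 88% of genes in the young comparison. In the aged comparisons the share was 6% for CLL against wild-type, 12% for CLL against non-CLL and 5% for non-CLL against wild-type. Only 100 genes at this size and 100 at a log2 change of 2 were changed. They were drawn from genes above about 20 TPM, and the other genes were not shifted. The shares therefore do not give the recovery for lower genes or for data that shift as a whole.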

Additional observations from a re-analysis of the deposited data

Results flagged for a closer look

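In CLL cells, 3 members had 1 library far from the other 4, out of 66 groups of 4 or 5 libraries checked, where about 1 in 20 is flagged by chance. Pot1a was at 3.62 TPM in CLL library 1, and the next lowest library was at 18.8 TPM. Nras was at 3986 TPM in CLL library 4, and the next highest was at 2236 TPM. Setd2 was at 95.0 TPM in CLL library 6, and the next highest was at 77.9 TPM.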

How the results depend on the processing

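In the young comparison (29 members higher, 0 lower), calls lower rose to 1 (Gnb1) under either rescaling, and calls higher fell to 15 without wild-type libraries 1 and 2. Leaving out single libraries gave 25 to 31 higher (27.8% to 39.9% of all genes). The fit with the replicate number as a block gave 29 higher and 0 lower. The numbers are not shown to pair these samples.

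For CLL against wild-type (0 higher, 1 lower), calls lower were 0 at a minimum of 20 TPM, with Olfr signal subtracted, without trend and robust estimation, and with the replicate block. They were 3 with a pseudocount of 0.1 (1 higher), 4 when rescaled by all genes, 12 with library weights (3 higher) and 5 with the 3 aged groups in 1 fit (1 higher). Those fits called 2.07% to 6.26% of all genes lower and 28.1% to 51.7% higher, with the extremes on the upper side from library weights. Rescaling by genes of at least 20 TPM gave 1 higher and 1 lower (14.6% and 1.04% of all genes). Leaving out single libraries gave 0 to 1 higher (1.20% to 37.1% of all genes) and 0 to 3 lower (0.362% to 2.34%). The minimum of 20 TPM and Olfr subtraction called 0.760% and 0.406% of all genes lower. The replicate block sets mutant beside wild-type libraries, which share only the numbers 1 and 2, and it called 2 of 21202 genes.

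For CLL against non-CLL (0 and 0), library weights gave 1 higher and 3 lower, and heterozygous libraries alone gave 2 lower, as did leaving out CLL library 6. These fits called 50.2%, 49.0% and 48.6% of all genes lower, so the members' share lay far below that of all genes. Leaving out single libraries gave 0 to 2 lower (1.05% to 48.6% of all genes), and the replicate block (the number) gave 0 and 0. Rescaled by all genes, 20 of 33 members changed sign, among them Pot1a (0.027) and Bcor (0.11).

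For non-CLL against wild-type (1 higher, 5 lower), both counts were 0 at a minimum of 20 TPM and with Olfr signal subtracted. Those fits called 0.942% and 0.231% of all genes higher, and 0.208% and 0.0894% lower. Calls higher were 0 with a pseudocount of 0.1, 4 with library weights (64.2% of all genes), and 2 higher with 1 lower without trend and robust estimation. The 3 groups in 1 fit gave 0 and 3 (54.7% and 1.05% of all genes). Rescaling by all genes gave 0 and 26 (43.0% and 20.8%), with Pot1a at -0.41, Notch1 at -0.22 and Spen at -0.48. Olfr subtraction turned Notch1 to -0.47 and Spen to -0.59. Leaving out single libraries gave 0 to 1 higher (49.7% to 57.4% of all genes) and 2 to 6 lower (0.632% to 2.50%). No paired analysis was possible because these groups share only the number 2.

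For the 48 results on genes chosen by the naming rule, 653 alternative values kept direction and call, 88 lost the call, 30 gained it and 7 reversed. Over all 33 members and 4 comparisons, 135 of 2294 alternative values changed sign. The cause was not tested. Aged genes of low level, such as Notch1, lie near the Olfr medians of some libraries, and the part of this background was not tested.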
